A study of Mus musculus with 14 samples.

Results

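The loci of 10 scavenger and phagocytic receptors were examined in 14 ChIP-seq peak lists of transcription factors (TFs), that is, places where chromatin immunoprecipitation with an antibody enriched DNA, along the path from mesoderm to macrophages. The genes were Msr1, Marco, Cd36, Cd68, Cd163, Mrc1, Mertk, Axl, Cd14 and Adgre1, chosen by name among 21774 protein-coding genes of the RefSeq annotation of the mouse genome (GRCm38, also called mm10). A peak belonged to a locus when it overlapped the gene span extended by 20 kb on each side. Of 158488 peaks in the 14 lists, 186 met this rule. The rule itself used no value of the peaks.

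All cells came from 1 mouse embryonic stem cell line of strain 129 that carried a GFP reporter in the Brachyury gene, differentiated in culture without any other treatment named in the labels. Mesoderm cells (MES) were Bry.GFP+ and FLK1-, hemangioblasts (HB) Bry.GFP+ and FLK1+, hemogenic endothelium cells (HE) Tie2+, cKit+ and CD41-, hematopoietic progenitors (HP) CD41+, and macrophages (MAC) CD11b+. C/EBPβ was mapped at all 5 stages, PU.1 (the product of Spi1) and RUNX1 in HP and MAC, GATA2 in HB and HP, GATA1 and GFI1B in HP, and ELK4 in MES. Each factor at each stage was represented by 1 list, without replicate lists, so no difference could be set against a spread between samples and no test was made. According to the paper, some lists, among them C/EBPβ in MES, HE and HP, merged technical replicates. Lists held from 72 peaks (MAC RUNX1) to 82866 (MAC PU.1), each peak was 400 bp wide, and no height, score or read depth came with it. The authors set the calling threshold by eye for each list, so a longer list is not a measure of more binding. Intervals are exact Clopper-Pearson 95% intervals and cover counting error only. No expression values were used here, so the sorted populations could not be checked against their markers.

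Scavenger receptors take up modified lipoproteins, bacteria and debris, and macrophages carry many kinds of them. Msr1 and Marco belong to the collagen-like class A receptors, Cd36 to class B, and Cd163 binds the haptoglobin-hemoglobin complex. Mrc1 is the mannose receptor, Cd68 is a glycoprotein of late endosomes and lysosomes, Mertk and Axl are receptor tyrosine kinases that bind apoptotic cells through bridging ligands, Cd14 is a lipopolysaccharide coreceptor and Adgre1 encodes the macrophage surface antigen F4/80. PU.1 is an ETS factor of myeloid and B cells and C/EBPβ is a basic leucine zipper factor, and the pair occupy many macrophage enhancers.

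The sequences on which the description turns are given first, from the RefSeq genome of GRCm38.p6, on the strand of the receptor gene and from 5′ to 3′. Each comes from the region of its locus found in the most lists, with ties given to the region nearest the start, trimmed to at most 300 bases around the centre and free of annotated untranslated sequence. Capitals mark C/EBP letters (TTGCNNAA), the PU.1 core (AGGAAGT, the end of the longer GAGGAAGT) and AP-1 letters (TGANTCA), each on either strand. For comparison, 23.3% of 117292 bound regions held the C/EBP letters in windows of 300 bases, 33.6% the PU.1 core and 15.3% the AP-1 letters. Over whole peaks the PU.1 core was in 6 of the 12 HP PU.1 peaks at the receptors (50%), against 61.6% of all HP PU.1 peaks, so it was not more frequent here than in the list. The first group holds regions with HP PU.1, MAC PU.1 and MAC C/EBPβ peaks. In Msr1 the PU.1 core occurs at bases 147 and 159, in Mertk at base 146, and in Adgre1 none of the 3 motifs was found.
Msr1, chr8:39619829-39620128, minus strand: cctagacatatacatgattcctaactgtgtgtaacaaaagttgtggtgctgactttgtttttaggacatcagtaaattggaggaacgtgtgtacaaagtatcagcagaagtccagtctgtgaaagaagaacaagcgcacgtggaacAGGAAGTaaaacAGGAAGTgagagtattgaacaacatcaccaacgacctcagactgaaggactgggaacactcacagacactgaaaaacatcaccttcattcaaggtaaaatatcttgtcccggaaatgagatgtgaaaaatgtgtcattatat
Mertk, chr2:128796467-128796766, plus strand: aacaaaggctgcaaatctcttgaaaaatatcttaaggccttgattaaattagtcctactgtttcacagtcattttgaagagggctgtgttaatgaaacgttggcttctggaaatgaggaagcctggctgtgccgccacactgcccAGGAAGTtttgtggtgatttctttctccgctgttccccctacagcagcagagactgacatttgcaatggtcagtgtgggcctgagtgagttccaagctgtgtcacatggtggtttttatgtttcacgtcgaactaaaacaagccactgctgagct
Adgre1, chr17:57346997-57347296, plus strand: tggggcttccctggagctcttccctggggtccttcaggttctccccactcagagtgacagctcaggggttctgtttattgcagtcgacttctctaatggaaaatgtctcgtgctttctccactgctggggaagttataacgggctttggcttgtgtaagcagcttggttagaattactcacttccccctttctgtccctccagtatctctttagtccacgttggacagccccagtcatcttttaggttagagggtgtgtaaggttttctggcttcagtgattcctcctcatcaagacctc

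A second group holds C/EBPβ peaks of more than 1 stage. The upstream Cd68 region and the upstream Axl region both spell TTGTGCAA, at bases 128 and 146, near the middle of the window.
Cd68 upstream, chr11:69671288-69671587, minus strand: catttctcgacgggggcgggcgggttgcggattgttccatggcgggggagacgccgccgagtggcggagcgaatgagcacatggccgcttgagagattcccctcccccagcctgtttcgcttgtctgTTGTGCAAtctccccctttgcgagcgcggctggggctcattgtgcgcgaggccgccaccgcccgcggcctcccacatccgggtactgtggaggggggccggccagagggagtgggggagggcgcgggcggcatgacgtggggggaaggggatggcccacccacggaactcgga
Axl upstream, chr7:25790685-25790984, minus strand: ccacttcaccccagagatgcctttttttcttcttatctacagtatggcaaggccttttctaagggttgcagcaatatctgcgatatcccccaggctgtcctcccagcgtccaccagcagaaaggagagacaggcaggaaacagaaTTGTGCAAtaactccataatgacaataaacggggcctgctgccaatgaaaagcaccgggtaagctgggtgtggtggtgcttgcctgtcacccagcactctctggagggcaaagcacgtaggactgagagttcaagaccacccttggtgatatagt

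The regions printed for Cd36, Marco and Cd163 had MAC PU.1 and MAC C/EBPβ peaks alone. The Cd163 window, the only bound place at that locus, holds C/EBP letters at base 43 and AP-1 letters at base 174.
Cd36, chr5:17839610-17839909, minus strand: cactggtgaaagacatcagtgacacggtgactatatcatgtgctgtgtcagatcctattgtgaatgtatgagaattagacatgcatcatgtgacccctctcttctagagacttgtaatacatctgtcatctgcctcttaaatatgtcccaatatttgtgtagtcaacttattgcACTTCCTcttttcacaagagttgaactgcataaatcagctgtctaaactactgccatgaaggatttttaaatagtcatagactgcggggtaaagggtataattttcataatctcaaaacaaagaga
Marco start, chr1:120504609-120504777, minus strand: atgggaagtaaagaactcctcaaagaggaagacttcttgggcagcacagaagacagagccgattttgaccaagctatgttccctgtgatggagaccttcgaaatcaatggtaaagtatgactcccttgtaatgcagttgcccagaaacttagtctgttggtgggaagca
Cd163, chr6:124309009-124309308, plus strand: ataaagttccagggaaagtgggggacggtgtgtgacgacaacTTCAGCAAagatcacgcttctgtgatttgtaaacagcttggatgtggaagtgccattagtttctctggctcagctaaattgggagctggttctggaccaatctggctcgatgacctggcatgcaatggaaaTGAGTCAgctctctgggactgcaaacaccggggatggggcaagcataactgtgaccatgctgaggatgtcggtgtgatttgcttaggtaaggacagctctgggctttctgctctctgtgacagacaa

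Windows from 3 further HP PU.1 regions were added after their values were seen. They are the region at the Cd68 start, the Marco intron and the Axl intron. The PU.1 core of the Marco intron is the longer GAGGAAGT on the other strand. The MAC PU.1 peak of the Axl intron stands nearest the top of its list among all peaks at the 10 loci. Each of the 3 windows holds marked letters, so they do not stand for all HP PU.1 regions. Among windows not printed, that at the Mpdu1 start near Cd68 held the PU.1 core. Those in an Msr1 intron, at the Hnrnpul1 start near Axl and 14494 bp upstream of Adgre1 held none of the 3 motifs. The Hnrnpul1 window was cut to 161 bases, and its whole region holds 1 match to GAGGAAGT.
Cd68 start, chr11:69666171-69666470, minus strand: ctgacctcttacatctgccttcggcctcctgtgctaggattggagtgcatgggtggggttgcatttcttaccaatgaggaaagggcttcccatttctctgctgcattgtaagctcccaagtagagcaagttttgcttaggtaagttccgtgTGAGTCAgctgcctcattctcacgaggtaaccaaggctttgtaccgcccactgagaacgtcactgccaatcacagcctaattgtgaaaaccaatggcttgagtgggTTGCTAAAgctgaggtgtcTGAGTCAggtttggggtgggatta
Marco intron, chr1:120480999-120481298, minus strand: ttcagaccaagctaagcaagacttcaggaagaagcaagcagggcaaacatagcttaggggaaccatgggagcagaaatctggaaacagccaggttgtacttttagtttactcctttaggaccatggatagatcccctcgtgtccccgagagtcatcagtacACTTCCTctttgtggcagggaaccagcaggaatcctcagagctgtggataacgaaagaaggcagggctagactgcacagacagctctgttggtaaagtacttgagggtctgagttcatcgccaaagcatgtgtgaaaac
Axl intron, chr7:25776794-25777093, minus strand: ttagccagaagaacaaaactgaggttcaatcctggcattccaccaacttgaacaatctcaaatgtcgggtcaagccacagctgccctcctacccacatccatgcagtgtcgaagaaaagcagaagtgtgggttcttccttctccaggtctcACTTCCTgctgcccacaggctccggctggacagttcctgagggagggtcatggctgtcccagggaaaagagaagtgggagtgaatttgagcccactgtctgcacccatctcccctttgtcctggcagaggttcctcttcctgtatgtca

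Of the 186 peaks at the receptor loci, 184 (98.9%) came from PU.1 or C/EBPβ lists, as did 97.2% of all peaks, and 164 (88.2%) came from macrophage lists, as did 87.3% of all peaks. Both shares were near those of the whole series. MAC PU.1 had 93 peaks and MAC C/EBPβ 71, and each had at least 1 peak at 10 of 10 loci. Among all coding genes, 79.1% had a MAC PU.1 peak and 73.8% a MAC C/EBPβ peak within the same flanks. Among the 17626 coding genes whose extended span lies in the receptors' own length range (41.8 to 165 kb), these shares were 84.2% and 78.5%. Peaks of both lists were present at 10 of 10 loci and at 71.4% of coding genes. Occupancy of all loci in macrophages is therefore close to what most genes showed. At least 5 MAC PU.1 peaks were found at 9 of 10 loci, against 43.9% of coding genes, and at least 5 MAC C/EBPβ peaks at 8 of 10, against 24.2%. In the length range these backgrounds were 46.0% and 23.6%. These counts take no account of span, unlike the densities per 100 kb.

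In progenitors PU.1 was listed at 8 of the 10 loci with 12 peaks, against 38.2% of coding genes with a peak and 39.5% of those in the length range. Cd36 and Cd163 had none. HP C/EBPβ had 5 peaks at 4 loci (Cd68, Mertk, Axl and Cd14), against 14.8% of coding genes and 15.3% in the length range. With the receptor as the nearest coding start HP C/EBPβ was at 1 locus, and with the gene span alone at 0. HP RUNX1 had 1 peak, at Cd68 (7.79% of coding genes), and HP GFI1B, GATA1 and GATA2 had 0, where 11.8%, 1.75% and 3.36% of coding genes had a peak.

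Before the progenitor stage 2 of the loci had a peak. MES C/EBPβ had 1 peak at Cd68 and 1 at Cd14 (6.47% of coding genes), MES ELK4 1 at Cd68 (4.66%) and HB C/EBPβ 1 at Cd68 (4.24%). HB GATA2 and HE C/EBPβ had none, with backgrounds of 0.363% and 0.684%, and MAC RUNX1 had none, with 0.478%. These 3 lists held 97, 132 and 72 peaks over the whole genome, so a count of 0 at 10 loci says little about them. Every early peak, and the HP RUNX1 peak, had the start site of a gene other than the receptor as its nearest coding start.

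**Figure D1:**
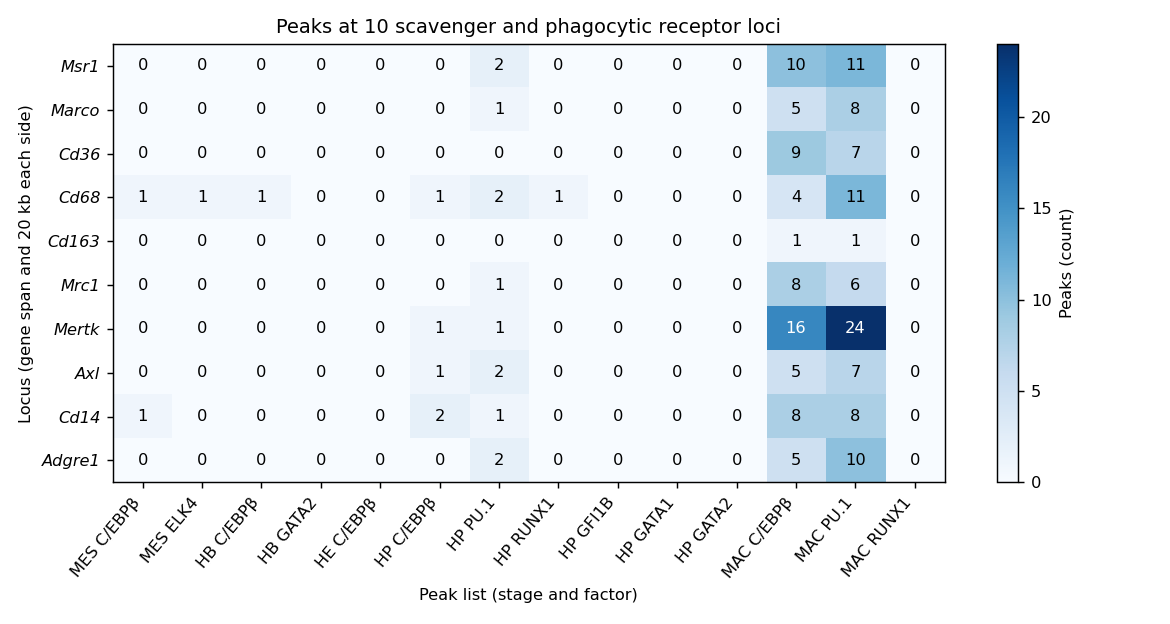
Number of peaks of each of the 14 lists (columns, by stage and factor) at each of the 10 loci (rows), where a locus is the gene span with 20 kb on each side. MAC PU.1 ranges from 1 peak (Cd163) to 24 (Mertk) and MAC C/EBPβ from 1 to 16, while 9 of the 14 lists have at most 1 peak over the 10 loci and MES C/EBPβ has 2.

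Msr1 (Gene ID 20288, chr8:39543232-39642750, minus strand), the macrophage scavenger receptor of class A, had 11 MAC PU.1 and 10 MAC C/EBPβ peaks, 2 HP PU.1 peaks and 0 in the other 11 lists. Of the 11 PU.1 peaks, 8 overlapped a C/EBPβ peak. Both factors lay on the start site, in a region centred 36 bp upstream of it. The HP PU.1 peaks lay inside the gene. The first, 22700 bp downstream of the start, is centred on an exon, contains the paired PU.1 cores printed above and was also bound by both factors in macrophages. The other lies in an intron 69459 bp downstream and had a MAC PU.1 peak but no MAC C/EBPβ peak. From 69.8 kb downstream to the end of the extended span, over 49.8 kb, neither macrophage factor had a peak.

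Marco (Gene ID 17167, chr1:120474538-120505024, minus strand), which binds bacteria and particles, had 8 MAC PU.1, 5 MAC C/EBPβ and 1 HP PU.1 peak and 0 in the other lists. Of its MAC PU.1 peaks, 3 overlapped MAC C/EBPβ. Among these regions was an exonic region centred 169 bp into the gene, with 3 matches to the C/EBP letters, none within the printed window. The HP PU.1 peak lies in an intron 23876 bp downstream of the start and was present again in the MAC PU.1 list. In contrast to the Msr1 exon, no C/EBPβ peak accompanied it. The MAC PU.1 peak 37506 bp downstream of the start, beyond the gene's end, came at 0.23% of the way down its list.

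Cd36 (Gene ID 12491, chr5:17781690-17888959, minus strand), which takes up oxidised lipoprotein and fatty acids, differed from Msr1 and Marco in having more C/EBPβ than PU.1 peaks, 9 against 7, and no peak before the macrophage stage. It is annotated with 3 separate curated start sites, and distances are given to the nearest of them. The macrophage factors overlapped in 3 regions, of which the closest to a start, 3863 bp upstream of it and within an intron of the gene, holds a PU.1 core. MAC PU.1 alone lay 147 bp upstream of a start, and MAC C/EBPβ alone 1867 bp downstream.

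Cd68 (Gene ID 12514, chr11:69664213-69666170, minus strand), with a span of 1958 bp the second shortest of the genes, had peaks in 8 lists, more than any other receptor. The counts were 1 in MES C/EBPβ, MES ELK4, HB C/EBPβ, HP C/EBPβ and HP RUNX1, 2 in HP PU.1, 4 in MAC C/EBPβ and 11 in MAC PU.1. The extended span also holds 7 other coding genes (Eif4a1, Fxr2, Mpdu1, Senp3, Sox15, Tnfsf13 and Tnfsfm13), and most peaks lie nearer to their start sites than to that of Cd68. At the Cd68 start, a region centred 38 bp upstream had HP PU.1, MAC PU.1 and MAC C/EBPβ peaks. This was the only HP PU.1 peak within 2 kb of the start of a receptor of the set, where 10.5% of coding genes had one. Its window holds AP-1 letters at bases 152 and 277 and C/EBP letters at base 258.

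The second HP PU.1 peak of the Cd68 locus lies 3378 bp downstream of the Cd68 start, in a region 143 bp from the start of Mpdu1. It too was present in the MAC PU.1 list. The MES ELK4 peak lies in an intron of Mpdu1, 282 bp from its start, and overlapped no peak of any other list.

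The 5-list region upstream of Cd68 lies 5267 bp from the Cd68 start, within an intron of Eif4a1 (a translation initiation factor) and 986 bp from the Eif4a1 start. It had C/EBPβ peaks in MES, HB, HP and MAC and an HP RUNX1 peak. These 5 peaks merge into 443 bp, and no other of 117293 merged regions had exactly this set of lists. The C/EBPβ peaks stand high in their lists, at 7.73% of the lines in MES, 22.9% in HB, 5.3% in HP and 0.105% in MAC, whereas the RUNX1 peak stands at 67.3%. The peaks hold the C/EBP letters and no match to the RUNX letters (TGTGGTT), and no PU.1 peak overlapped them.

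Cd163 (Gene ID 93671, chr6:124304636-124330529, plus strand), the hemoglobin scavenger receptor, was the sparsest locus, with 1 MAC PU.1 and 1 MAC C/EBPβ peak and 0 in the other 12 lists. Both peaks fall in the same region, centred on an exon 4507 bp downstream of the start. No peak lay within 2 kb of the start. The following 41.1 kb, to the end of the extended span, had no peak of either factor. The peaks were not at the foot of their lists, since they stood at 48.8% of the lines for PU.1 and 28.6% for C/EBPβ.

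Mrc1 (Gene ID 17533, chr2:14229414-14332023, plus strand), the mannose receptor, had 6 MAC PU.1, 8 MAC C/EBPβ and 1 HP PU.1 peak and 0 in the other lists. Like Cd36 it had more C/EBPβ than PU.1 peaks. The peaks clustered around the 5′ part of the gene, with 4 of the 6 PU.1 peaks overlapping C/EBPβ. Both macrophage factors lay 726 bp upstream of the start. In the intron 4761 bp downstream, HP PU.1, MAC PU.1 and MAC C/EBPβ peaks coincided. Beyond 21.2 kb from the start, 89.7 kb without a macrophage PU.1 or C/EBPβ peak followed, up to a region 111 kb downstream that lies past the gene's end.

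Mertk (Gene ID 17289, chr2:128698915-128803162, plus strand) carried the most peaks of the set, 24 for MAC PU.1 and 16 for MAC C/EBPβ, and 1 each for HP PU.1 and HP C/EBPβ. Of the 24, 9 overlapped a MAC C/EBPβ peak. The peaks were spread through the gene, and the longest stretch without a macrophage peak was 13.8 kb. MAC PU.1 peaks lay 202 and 1161 bp upstream of the start, without C/EBPβ. The progenitor peaks lay at the other end. HP PU.1 was found in an intron 97701 bp downstream of the start, where MAC PU.1 and MAC C/EBPβ peaks followed. HP C/EBPβ was found 107869 bp downstream, past the gene's end, again with both macrophage factors, and the region holds 2 matches to the C/EBP letters. The MAC PU.1 peaks of these regions came at 0.953% and 3.08% of the lines of their list.

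Axl (Gene ID 26362, chr7:25756500-25788924, minus strand), the related kinase, had 7 MAC PU.1 peaks, 5 MAC C/EBPβ, 2 HP PU.1 and 1 HP C/EBPβ peak and 0 in the other lists. None of its MAC PU.1 peaks overlapped a MAC C/EBPβ peak. A PU.1 peak overlapping a C/EBPβ peak was present at the other 9 loci, and at 57.5% of coding genes. Progenitor binding was likewise split between places. HP C/EBPβ lay 2101 bp upstream of the curated start (1910 bp from a predicted one) at the TTGTGCAA printed above, where MAC C/EBPβ was also found. This was the only HP C/EBPβ peak within 2 kb of any annotated start of a receptor of the set, against 4.31% of coding genes. HP PU.1 lay in an intron 11790 bp downstream, and at 32528 bp downstream on the start of the neighbouring gene Hnrnpul1. The intronic site was near the top of both PU.1 lists, at 0.85% of the lines in HP and 0.1% in MAC.

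Cd14 (Gene ID 12475, chr18:36725064-36726815, minus strand) had 8 MAC PU.1, 8 MAC C/EBPβ, 2 HP C/EBPβ, 1 HP PU.1 and 1 MES C/EBPβ peak and 0 in the other lists. Of its macrophage PU.1 peaks, 4 overlapped C/EBPβ. Those 4 regions included 1 at the Cd14 start, centred 82 bp into the gene with 2 matches to the AP-1 letters, and 1 centred 1035 bp upstream. No progenitor peak was found at either. HP PU.1 and HP C/EBPβ peaks lay together in only 1 region of the set, 17795 bp downstream of the start. Such overlap held for 1 of the 12 HP PU.1 peaks of the set (8.33%), against 3.71% of the whole list. From HP C/EBPβ it held for 1 of 5 (20%), against 14.9%. Both macrophage factors were found in this region as well. The other HP C/EBPβ peak lies 8226 bp upstream of Cd14, 21 bp from the start of Tmco6, in a region also listed for MES C/EBPβ, MAC C/EBPβ and MAC PU.1. In that region the MES peak was near the end of its list (96.8% of the lines), while the MAC C/EBPβ peak was near the top (0.91%).

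Adgre1 (Gene ID 13733, chr17:57358581-57483529, plus strand), the gene of the F4/80 antigen, had 10 MAC PU.1, 5 MAC C/EBPβ and 2 HP PU.1 peaks and 0 in the other lists. Both macrophage factors lay at the start, in a region centred 94 bp upstream. The HP PU.1 peaks lay 14494 and 11540 bp upstream, in intergenic sequence, among a group of MAC PU.1 peaks. The nearer of these was also bound by C/EBPβ in macrophages and stood at 0.928% of the lines of the MAC PU.1 list. C/EBPβ had no peak in the gene body beyond 807 bp, whereas PU.1 had 4 peaks from 3015 to 90929 bp.

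**Figure D2:**
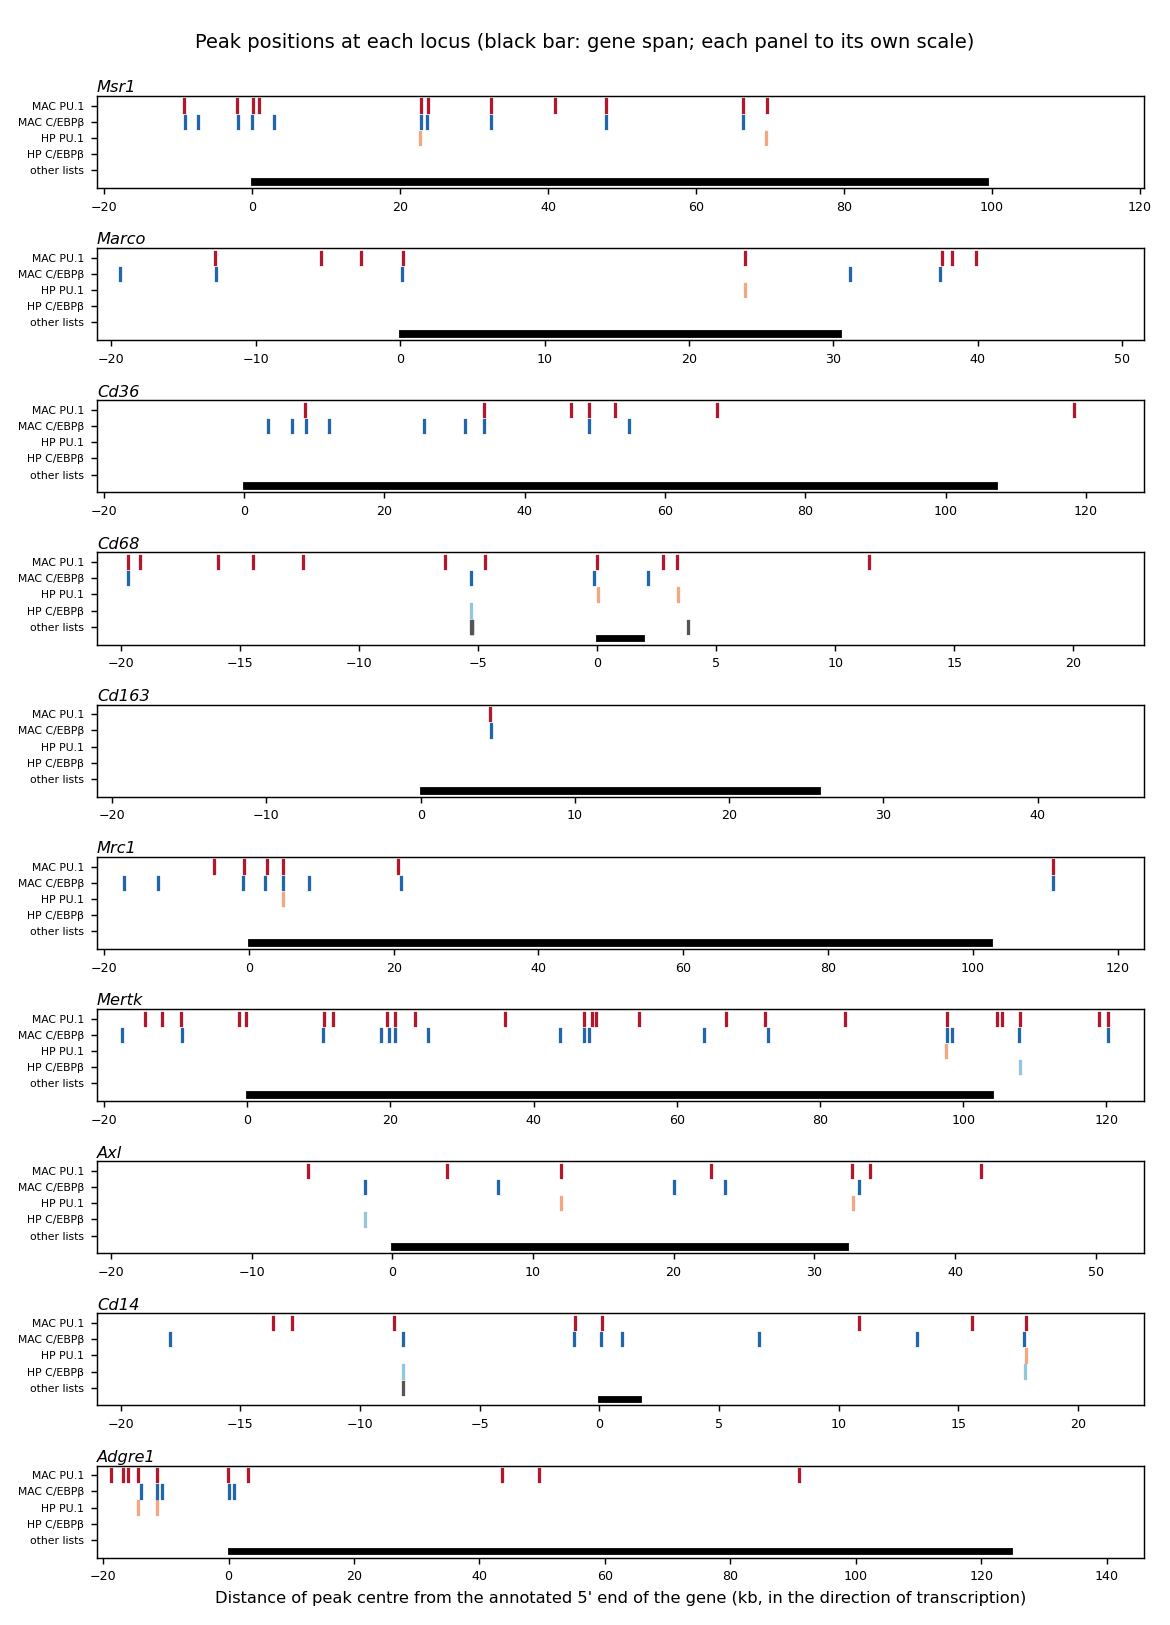
Positions of peak centres at each locus, in kb from the annotated 5′ end of the gene in the direction of transcription, with 1 row for each of HP and MAC PU.1 and C/EBPβ and 1 row for the remaining lists, and the gene span as a black bar. Macrophage peaks cover Mertk from end to end, stop at 21.2 kb in Mrc1 until 111 kb, and are reduced to 1 place at Cd163.

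Per length, the loci differed by more than 10 times. MAC PU.1 density fell from 26.2 peaks per 100 kb of extended locus at Cd68 through 19.2 at Cd14, 16.6 at Mertk, 11.3 at Marco, 9.67 at Axl, 7.88 at Msr1, 6.06 at Adgre1, 4.75 at Cd36 and 4.21 at Mrc1 to 1.52 at Cd163. Among coding genes of the receptors' length range, the share with a lower MAC PU.1 density was 99.2% for Cd68, 95% for Cd14, 91.7% for Mertk, 76.8% for Marco, 69.5% for Axl, 59.7% for Msr1, 48.1% for Adgre1, 40.6% for Cd36, 35.9% for Mrc1 and 18.7% for Cd163, so 4 of the 10 lay below the median of those genes. MAC C/EBPβ density fell from 19.2 at Cd14 through 11.1 at Mertk, 9.53 at Cd68, 7.17 at Msr1, 7.09 at Marco, 6.9 at Axl, 6.11 at Cd36, 5.61 at Mrc1 and 3.03 at Adgre1 to 1.52 at Cd163. Cd14 thus led for C/EBPβ, higher than 99.8% of coding genes. With 1 list a factor, neighbours in these orders could not be set apart.

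The median over the receptors was 8.77 peaks per 100 kb for MAC PU.1, against 5.24 over all coding genes and 6.32 over those in the same length range. For MAC C/EBPβ it was 7, against 3.17 and 3.82. Other coding genes share the extended spans of Cd68 (7), Cd14 (3), Mertk (2), Axl (2) and Mrc1 (1), and their part in the densities was not tested. For 61 of the 93 MAC PU.1 peaks and 53 of the 71 MAC C/EBPβ peaks the receptor had the nearest coding start. Msr1, Marco, Cd36, Cd163 and Adgre1 share their extended spans with no other coding gene.

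**Figure D3:**
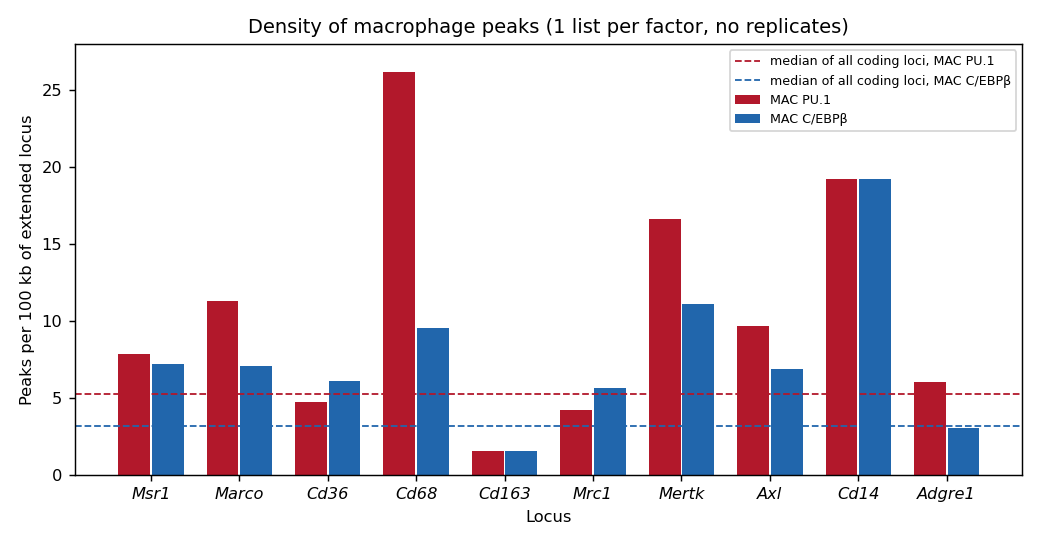
MAC PU.1 and MAC C/EBPβ peaks per 100 kb of extended locus for each of the 10 loci (bars, 1 list per factor and therefore no error bars), with dashed lines at the medians over all coding genes, 5.24 and 3.17. Cd68, Cd14 and Mertk are highest for both factors, and Cd163 is lowest at 1.52.

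To see where the peaks lie with respect to start sites, peak centres within 2 kb of any annotated start of the receptor were counted. MAC PU.1 had such a peak at 8 of 10 receptors, all but Cd163 and Axl, where 52.4% of coding genes had one. MAC C/EBPβ had one at 8 of 10, all but Cd163 and Mertk, where 39.1% of coding genes had one. In progenitors 3 of the 12 PU.1 peaks lay within 2 kb of the start of any coding gene (25%), against 20.9% of all HP PU.1 peaks. Of the 12 HP PU.1 peaks, 5 were in introns of the receptor, 2 in its exons, 4 in intergenic sequence and 1 in another gene, and the median distance from the receptor's start was 16164 bp.

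Progenitor and macrophage lists were then compared place by place. All 12 HP PU.1 peaks overlapped a MAC PU.1 peak (100%, 73.5 to 100%), as 97% of all HP PU.1 peaks did (8 of 10 loci had such a place, and 37.8% of coding genes), and all 5 HP C/EBPβ peaks overlapped a MAC C/EBPβ peak, as 91.4% of all did. In the other direction, 12 of the 93 MAC PU.1 peaks were already in the HP list (12.9%, 6.85 to 21.5%), against 12.8% of all MAC PU.1 peaks. In both directions the receptor loci were thus at the level of the whole lists. The HP PU.1 peaks overlapped a MAC C/EBPβ peak in 6 of 12 cases (50%, 21.1 to 78.9%), against 36% of all, and these 6 places lie at 6 different receptors, Msr1, Cd68, Mrc1, Mertk, Cd14 and Adgre1. A gene with such a place was found for 18.1% of coding genes.

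Within macrophages, 36 of the 93 PU.1 peaks overlapped a C/EBPβ peak (38.7%, 28.8 to 49.4%), against 28.5% of all MAC PU.1 peaks. Read from C/EBPβ, 36 of 71 peaks overlapped PU.1 (50.7%, 38.6 to 62.8%), against 42.5% of all. Peaks at 1 locus are not independent, and Msr1 and Mertk gave 17 of the 36. In the shared regions the centres of the 2 peaks were close, with a median offset of 44.5 bp, against 65 bp over all shared peaks. Merging all lists gave 129 regions at the 10 loci, of which 44 (34.1%) were in at least 2 lists, against 28% of all regions.

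Motif letters were then counted in the peaks. The C/EBP letters were found in 35 of 71 MAC C/EBPβ peaks (49.3%, 37.2 to 61.4%), against 41.9% of all peaks of that list and 15.5% of windows 2 kb to each side. The longer PU.1 letters (GAGGAAGT) were found in 17 of 93 MAC PU.1 peaks (18.3%, 11 to 27.6%), against 24.4% of all and 3.23% of the flanking windows. Both motifs were thus more frequent in peaks than in their flanks, and their intervals at the receptors include the shares of the whole lists. In progenitors GAGGAAGT was in 3 of 12 PU.1 peaks (25%, 5.49 to 57.2%), against 42.1% of all HP PU.1 peaks, and the C/EBP letters were in 4 of 5 C/EBPβ peaks (80%, 28.4 to 99.5%), against 64%. Where C/EBPβ stood without PU.1, 21 of 35 peaks had the C/EBP letters and 0 of 35 (0 to 10%) the longer PU.1 letters, against 47.6% and 2.72% of such peaks in the whole list. Where the 2 factors overlapped, 14 of 36 C/EBPβ peaks (38.9%) had the C/EBP letters and 4 of 36 (11.1%) the PU.1 letters, against 34.2% and 15.2% in the whole list.

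AP-1 letters were in 8 of the 36 shared MAC PU.1 peaks and in 4 of the 57 PU.1 peaks without C/EBPβ. Over the whole list these shares were 21.1% and 13.6%. Without the split, 12 of 93 MAC PU.1 peaks had AP-1 letters (12.9%), against 13.4% of the flanks and 15.8% of all. Among MAC C/EBPβ peaks AP-1 letters were in 9 of 36 shared and 5 of 35 others, against 22.3% and 24% over the list. The composite ETS-IRF letters (GGAA and GAAA with 2 free bases between) were in 11 of 93 MAC PU.1 peaks (11.8%, 6.05 to 20.2%), against 8.01% of all. RUNX letters (TGTGGTT) were in 14 of 93, GATA letters (AGATAA) in 15 of 93 and E-box letters (CACGTG) in 6 of 93, and these 3 shares were 15.1%, 16.1% and 6.45%, with 14.5%, 24.2% and 3.76% in the flanks and 10.3%, 17.3% and 6.34% over all MAC PU.1 peaks. A match describes the letters of a window and does not show a bound site.

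**Figure D4:**
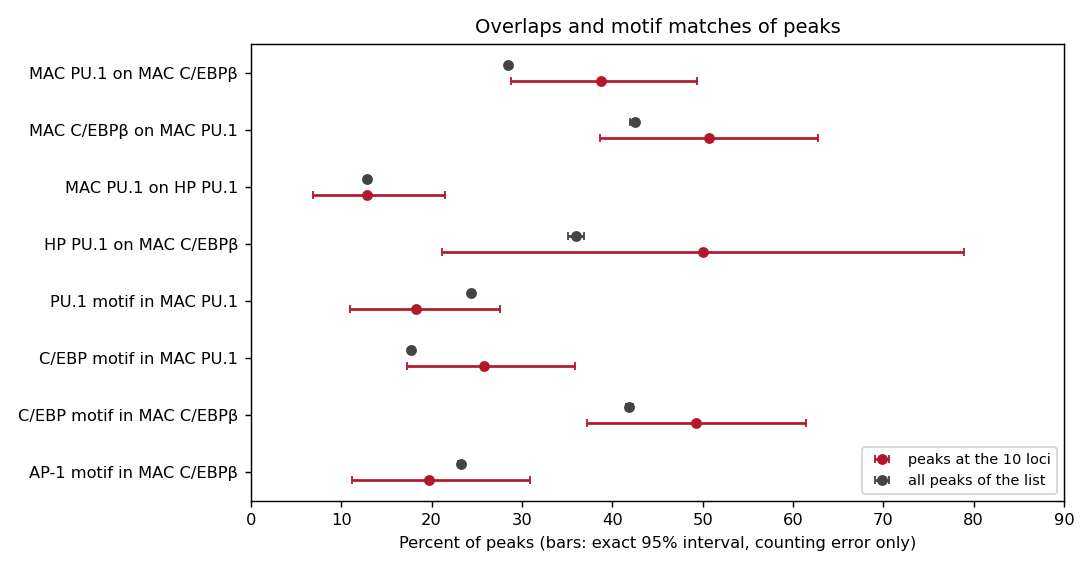
Percent of peaks that overlap another list (4 upper rows) or hold a motif (4 lower rows), for peaks at the 10 loci (red) and all peaks of the list (grey), with exact 95% intervals that cover counting error only. Among these 8 rows the widest gap is for HP PU.1 on MAC C/EBPβ, 50% against 36%, with the widest interval. Wider gaps are given in the text for the motifs of the HP lists. They are 25% against 42.1% for GAGGAAGT in PU.1 peaks and 80% against 64% for C/EBP letters in C/EBPβ peaks. Of these 8 rows, the interval of the receptor loci excludes the whole-list value only for MAC PU.1 on MAC C/EBPβ. There its lower bound is 28.8% against 28.5%. With 300 bp of overlap the share at the loci was 28%. The whole-list share at 300 bp is not given, so this 28% cannot be set against the 28.5%.

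In the 300 bases around the annotated start (250 before to 50 after), 7 of the 10 receptors had a RefSeq promoter entry. Among them the Cd68 window held C/EBP letters (present in 10.8% of all promoter windows), AP-1 letters (7.81%) and ETS-IRF letters (2.72%), and lay under HP PU.1, MAC PU.1 and MAC C/EBPβ peaks. The Marco window lay under MAC PU.1 and MAC C/EBPβ peaks and the Mertk and Cd36 windows under a MAC PU.1 peak, and none of these 3 windows held any of the 7 motifs. The Mrc1, Cd163 and Axl windows lay under no peak.

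The lines of the lists are not in genome order, and peaks near the top held their own motif more often. In the MAC PU.1 list, 38.7% of the first 10% of the lines had GAGGAAGT and 59.2% overlapped HP PU.1, and in the last 10% these shares were 18.3% and 2.35%. No source used here says what the order stands for. The receptor peaks were spread over the list, with 9 of 93 in the first 10% and a median position of 47.7% of the lines. The 12 MAC PU.1 peaks that were already in the HP list stood at a median of 8.3% (lowest 0.1%, highest 25.5%), and the other 81 at 59.9% (0.23 to 99.4%). Over the whole list the medians were 11.5% and 55.3%. For MAC C/EBPβ, 11 of 71 receptor peaks were in the first 10% and the median position was 41.8%. The MAC PU.1 peaks nearest the receptors' starts stood at 90.3% of the lines for Msr1, 83.1% for Marco, 98.7% for Mertk (59.9% for its second), 89.8% for Cd36, 76.1% for Adgre1, 62.3% for Cd14, 31.9% for Mrc1 and 16.2% for Cd68, all within 2 kb of the start, and, farther from it, at 48.8% for Cd163 and 8.62% for Axl. Over all 26 MAC PU.1 peaks of the loci within 2 kb of any coding start the median was 61.1%, against 51% over the 17041 such peaks of the list. For MAC C/EBPβ the difference had the other direction, with a median of 27.5% over 19 peaks, against 47.3% over 10317.

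**Figure D5:**
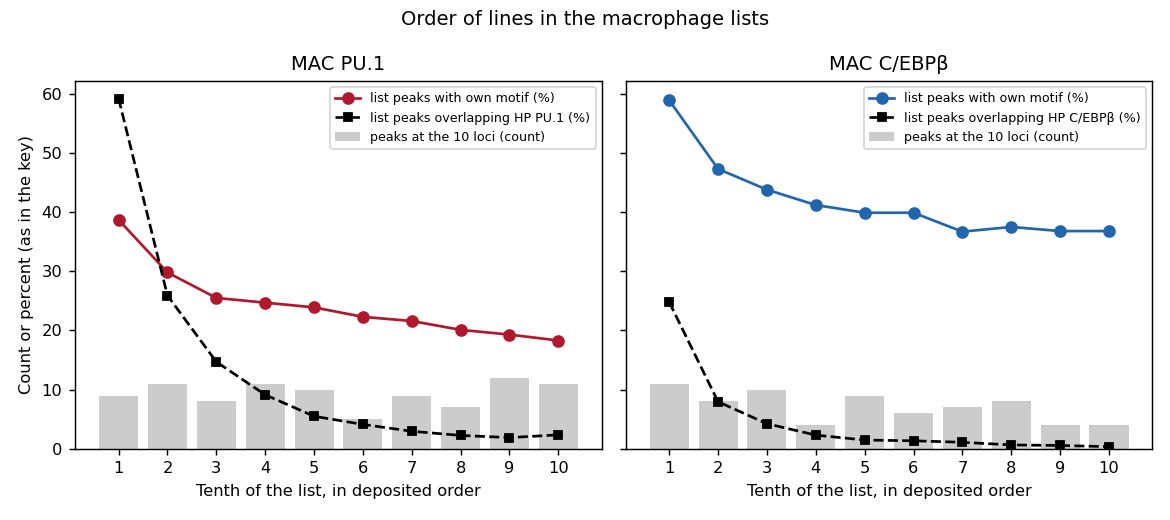
Peaks at the 10 loci in successive parts of 10% of the lines of the MAC PU.1 and MAC C/EBPβ lists in deposited order (grey bars, count), with the percent of all list peaks that hold the factor's own motif (coloured line) and that overlap the HP list of the same factor (black dashed line). The motif share falls from 38.7% to 18.3% for PU.1, while the receptor peaks range from 5 to 12 per part.

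Other genes of uptake and clearance were counted in the same way, in lists chosen by function. The shares over all coding genes were 79.1% for MAC PU.1, 73.8% for MAC C/EBPβ and 38.2% for HP PU.1. Of 14 other scavenger receptors, 14 had a MAC PU.1 and 14 a MAC C/EBPβ peak and 13 an HP PU.1 peak, with a median of 9.03 MAC PU.1 and 6.03 MAC C/EBPβ peaks per 100 kb. Cxcl16, which as a membrane protein binds oxidised lipoprotein, reached 26.3 MAC PU.1 peaks per 100 kb and Lrp1, an endocytic receptor, 22, while Scarf2 (3.92) and Stab2 (4.83) were lowest. Of 8 phagocytic C-type lectins, 8 had MAC PU.1, 6 MAC C/EBPβ and 4 HP PU.1 peaks. Clec4d and Clec4n were highest, at 13.2 and 10.5 MAC PU.1 peaks per 100 kb. Clec10a (2.26) and Clec7a (3.91) were lowest.

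Of 11 efferocytosis receptors and bridging ligands, to which Mertk and Axl belong in function, 11 had MAC PU.1, 10 MAC C/EBPβ and 6 HP PU.1 peaks. The coding-gene shares for this list and the next are 79.1%, 73.8% and 38.2%, in that order. Cd300lf (20.3 MAC PU.1 peaks per 100 kb) and Itgb5 (17.5) were highest, and Adgrb1 (0.883) and Havcr1 (3.76) lowest. Of 8 genes of the engulfment machinery, 7 had MAC PU.1, 8 MAC C/EBPβ and 6 HP PU.1 peaks. In MAC PU.1 peaks per 100 kb, Abca7 (22) and the GTPase gene Rac2 (20.5) were highest, and Dock2 (4.02) and Gulp1 (0) lowest. The 3 partners of Cd14 in lipopolysaccharide recognition, Tlr4, Ly96 and Lbp, had 5.08, 4.91 and 4.52 MAC PU.1 peaks per 100 kb, below the 19.2 of Cd14. The extended span of Cd14 holds 3 other coding genes, whose part in this difference was not tested.

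Loci of genes of other cell types had macrophage peaks too, as did most coding genes (79.1% for MAC PU.1, with a median of 5.24 peaks per 100 kb). MAC PU.1 had a peak at 5 of 5 endothelial, 5 of 5 erythroid, 5 of 5 mesodermal, 4 of 4 lymphoid and 2 of 4 pluripotency genes, with medians of 8.44, 12.3, 6.82, 10.4 and 2.23 peaks per 100 kb. In the same order of lists, HP PU.1 had a peak at 3, 1, 2, 4 and 0 genes, against 38.2% of coding genes. MAC C/EBPβ medians were 6.03, 2.45, 2.42, 4.19 and 1.12, against 7 at the receptors. The receptors' MAC PU.1 density, 8.77, thus lay within the range of these lists, and their C/EBPβ density was above these 5 but close to the 7.09 of the phagocytic lectins and the 6.8 of the engulfment machinery. With 1 list a factor and 4 or 5 genes a list, these orders were not tested.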

How the data were processed

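Per the labels, 14 peak lists were made from sorted cells of an embryonic stem cell culture, 1 list per factor and stage. The methods text states that the authors trimmed reads with CutAdapt, aligned them with Bowtie (mm10), kept unique positions, removed duplicates with Picard, called peaks with MACS against the input of the stage at a threshold set by eye, and refined them with polyPeak. Tool versions are not given in the sources used here. HE immunoprecipitations held carrier mRNA and recombinant histone. The deposited values are start and end positions of 400 bp peaks, with no score, height or depth.

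Members and gene lists were chosen with earlier results of these data known. All peaks at the 10 loci are described, and a region was named when it lay nearest the start, was in the most lists, or held HP PU.1, another factor or earlier C/EBPβ. Peaks counted as shared from 1 bp of overlap. Distances run to the nearest curated RefSeq start of the receptor, and the nearest coding gene and the 2 kb counts use all 56206 annotated coding starts. Motifs were searched on both strands of GRCm38. The programs (Python 3.11.15, SciPy 1.17.1, pysam 0.24.0, samtools 1.23.1, Matplotlib 3.10.9) were tested on simulated data. Other flanks, overlaps, letters and parts of the lists were tried. Sequences of 1 Mrc1 region and of the Cd14 regions are not reported here.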

Additional observations from a re-analysis of the deposited data

How the results depend on the processing

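Of 244 alternative values, 185 stayed close to the main value (a count within 1.5 times it, a share inside its interval) and 59 moved. None of them concerns a test, since each group holds 1 list. The 185 include counts of 0 that stayed at 0, for HB GATA2, HE C/EBPβ, HP GATA1, HP GATA2, MAC RUNX1 and most settings of HP GFI1B. Such counts had little room to move, so the 185 is not a measure of how stable the other values were. MAC PU.1 and MAC C/EBPβ stayed at 10 loci in the flank and nearest-start settings. No paired analysis was possible because every group holds 1 list, and a stricter threshold was not applied because the peaks carry no score. With the gene span alone, MES C/EBPβ, MES ELK4, HB C/EBPβ, HP C/EBPβ and HP RUNX1 fell to 0 loci and 0 peaks, HP PU.1 to 7 peaks, MAC C/EBPβ to 43 and MAC PU.1 to 45. With flanks of 5 kb, MES C/EBPβ, HB C/EBPβ and HP RUNX1 were at 0 loci and 0 peaks, HP C/EBPβ at 2 loci with 2 peaks and MAC PU.1 at 60 peaks. With flanks of 50 kb, HB C/EBPβ had 2 peaks at 2 loci, HP GFI1B 1 at 1, HP PU.1 19, MAC C/EBPβ 108 and MAC PU.1 140. When only peaks with the receptor as the nearest coding start were counted, MES C/EBPβ, MES ELK4, HB C/EBPβ and HP RUNX1 fell to 0 loci and 0 peaks, HP C/EBPβ to 1 locus with 1 peak and MAC PU.1 to 61 peaks. The early counts therefore depend on the flanks and on the neighbouring genes.

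Parts of the lists were chosen after seeing the data. In the first 50% of the lines, MES C/EBPβ had 1 peak at 1 locus, HP PU.1 7 at 5, HP RUNX1 0 at 0, MAC C/EBPβ 42 and MAC PU.1 49. In the first 10%, loci numbered 1 for MES C/EBPβ, 0 for MES ELK4, HB C/EBPβ and HP RUNX1, 1 for HP C/EBPβ, 1 for HP PU.1 and 5 for MAC PU.1. Asking for 300 bp of overlap lowered the shared part of MAC PU.1 to 28% and of MAC C/EBPβ to 36.6%. Whole-list shares at 300 bp are not given, so these values cannot be set against them. Looser letters raised the motif shares, to 36.6% for PU.1 (AGGAAGT, 13.4% in flanks and 45.3% of all peaks) and 73.2% for C/EBP (TTGCNNNA, 50% in flanks and 75.6% of all peaks).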
